A study of Mus musculus with 4 samples.

Results

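The Gm4301 to Gm8723 cluster is a run of near-identical genes on mouse chromosome 10, and 10 gene symbols of the 24190 listed belong to it: Gm8723, Gm4301, Gm4302, Gm8711, Gm4307, Gm4308, Gm4305, Gm8701, Gm4312 and Gm4781. They were chosen by symbol as neighbours on the chromosome, at a time when their levels in these same libraries were known, so their levels are given as a description and without a test. The libraries came from E14 (ES-E14TG2a), an established male mouse embryonic stem cell line, kept in serum-free N2B27 medium with a MEK inhibitor and a GSK3β inhibitor. A Zscan4c promoter had been stably integrated in both lines used. It drove GFP in one of them, called the GFP line here, and a GFP-Zscan4c fusion in the other, called the fusion line. Each line was sorted into GFP-negative cells, pluripotent by the labels, and GFP-positive cells, 2C-like by the labels, which gave 4 groups of 1 library each. The construct and the line that carries it cannot be told apart in this design.

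Cells of the mouse 2-cell embryo transcribe a set of genes that is silent in most embryonic stem cells. A few cells of such a culture enter a 2C-like state at any time and transcribe those genes again, among them Zscan4 genes. Many of the genes are young, multicopy families arranged as tandem arrays. The members of the chromosome 10 cluster are relatives of Alyref, which encodes an RNA-binding adaptor of the TREX complex that couples transcription to the export of mRNA from the nucleus. The sources used here do not describe what the cluster's own products do.

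By transcript identifier, the members lie at chr10:100330540-100397070 (GRCm38), a span of 66.5 kb. GENCODE M21 places 12 copies in that span, 8 on the plus strand and 4 on the minus strand, and consecutive plus-strand copies start 5.103 to 5.161 kb apart. The members' transcripts have 1 exon and are 781 to 927 bases long. GENCODE M21 types 4 members as protein coding and 6 as unprocessed pseudogenes. For 3 of the 10 members the deposited symbol differs from the GENCODE M21 symbol of the same transcript: Gm8723 and Gm8701 are exchanged, and the listed Gm4305 is the GENCODE M21 gene Gm4310. Positions here follow the transcript and names follow the deposited tables.

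The relation to Alyref can be read in a stretch of 90 bases inside the coding sequence. This stretch was picked as the gap-free 90 bases of Gm4302 with the fewest differences from Alyref. It therefore shows the closest match and not a typical one. It is shown for the coding member Gm4302, the most divergent member Gm4781, Gm20765 of the related Gm4340 family, and Alyref itself, with capitals at bases that differ from Gm4302.
Gm4302: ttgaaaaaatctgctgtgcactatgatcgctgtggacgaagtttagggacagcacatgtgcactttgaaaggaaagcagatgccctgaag
Gm4781: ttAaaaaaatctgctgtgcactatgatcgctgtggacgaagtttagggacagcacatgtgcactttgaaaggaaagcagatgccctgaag
Gm20765: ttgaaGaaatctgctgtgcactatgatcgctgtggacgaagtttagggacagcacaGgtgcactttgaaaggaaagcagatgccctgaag
Alyref: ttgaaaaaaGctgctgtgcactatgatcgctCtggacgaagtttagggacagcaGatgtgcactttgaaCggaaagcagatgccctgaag
Gm4781 differed from Gm4302 at 1 of the 90 bases, Gm20765 at 2 and Alyref at 4, and Gm4301 and Gm8711 had no difference. Over a longer alignment of 568 bases, Alyref was 82.4% identical to Gm4302. Alyref2, on chromosome 1, was 76.4% identical over 645 bases.

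Members differed in the length of a GCA repeat. It is printed in capitals with its flanking bases for 4 members that differ in length.
Gm4301: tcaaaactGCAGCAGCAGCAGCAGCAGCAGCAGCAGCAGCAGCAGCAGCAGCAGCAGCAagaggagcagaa
Gm4302: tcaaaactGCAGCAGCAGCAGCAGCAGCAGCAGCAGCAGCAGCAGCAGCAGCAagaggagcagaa
Gm8711: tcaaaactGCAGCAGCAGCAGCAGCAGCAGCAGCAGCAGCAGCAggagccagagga
Gm4781: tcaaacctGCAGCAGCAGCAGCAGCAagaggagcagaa
The repeat had 17 units in Gm4301, Gm4308 and Gm4312, 15 in Gm4302, 14 in Gm4305, 12 in Gm8711, 10 in Gm8723, Gm4307 and Gm8701, and 6 in Gm4781. In the coding frame the run is read as CAG, a codon for glutamine. Of the 289 codons of Gm4301, 49 are CAG or CAA, which is 17.0% of the codons, and Gm4302 has 54 of 294 (18.4%). The longest unbroken run of CAG codons is 16 in Gm4301 and 14 in Gm4302.

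Among the 45 pairs of members, identity between transcripts ran from 91.5% to 100%, with a median of 94.9%, and 22 pairs were at 95% or above. Gm4301, Gm4308 and Gm4312 are identical over their whole annotated length of 914 bases, although Gm4308 is typed as a pseudogene and Gm4301 as coding. Gm4781 stood apart, at 91.5% to 93.6% to each other member, and without it the lowest pair was at 93.5%.

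**Figure D1:**
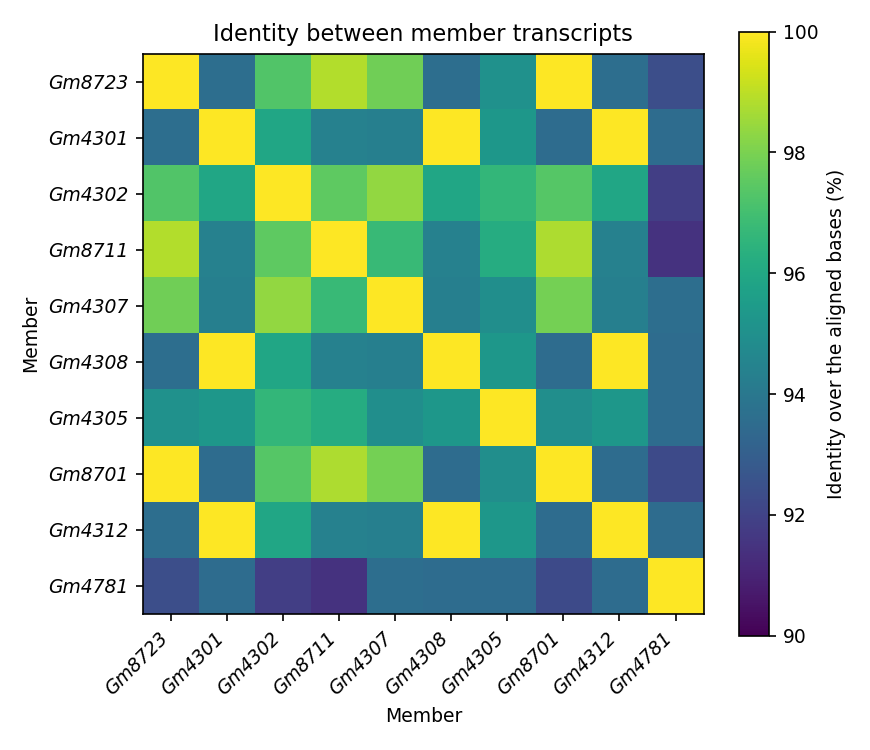
Identity between the annotated transcripts of each pair of members, as a percentage of aligned bases, by colour; members are in order along the chromosome on both axes. Gm4301, Gm4308 and Gm4312 are at 100%, and Gm4781 is at 91.5% to 93.6% to the others.

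Levels are in TPM, which scale reads by transcript length and library and keep no read counts. The depth of each library is therefore unknown, and the values carry no counting interval. The listed transcripts held 66.6% to 69.1% of a full TPM scale in the 4 libraries. Exact zeros made up 48.4% of symbols in the GFP line's GFP-negative library and 11.8% in its GFP-positive one, and 19.5% and 11.6% in those of the fusion line. No member was listed at 0 in any library. All 7 markers of the 2C-like state that were looked up were 2-fold or more higher in the GFP-positive library in both lines. Of all genes at 5 TPM or more in either library, 33.2% in the GFP line and 8.23% in the fusion line were also higher. Except for Zscan4c in the GFP line (9.24 TPM in GFP-negative cells), the 2C-like markers reached 5 TPM only in GFP-positive cells. The Zscan4c promoter also drove the GFP used for sorting. The count of 2C-like markers is therefore a description and no test of the state of the cells. The 6 markers of pluripotent cells had a median log2 ratio of -0.37 in the GFP line, and of -0.0088 in the fusion line. One of them, the transcription factor gene Klf4, was 2-fold or more lower in the GFP line (-1.42) and 2-fold or more higher in the fusion line (1.54).

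All 10 members were low in the GFP-negative libraries and far higher in the GFP-positive libraries of both lines. Summed over the cluster, the GFP line had 10.1 TPM in its GFP-negative and 660.3 TPM in its GFP-positive library, a ratio of 65.6. In the fusion line the sums were 7.09 and 1319.8, a ratio of 186. The cluster thus made up 0.0966% of listed TPM in the GFP-positive library of the GFP line and 0.191% in that of the fusion line. In sorted bulk RNA, more cells that transcribe a gene and more RNA per cell cannot be told apart.

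The values of each member are given for GFP-negative and then GFP-positive cells, first of the GFP line and then of the fusion line. Among the members GENCODE M21 types as coding, Gm4301 had 1.53, 75.7, 0.856 and 153 TPM. Gm4302, the coding member with the most CAG and CAA codons, had 0.848, 74.5, 0.733 and 152 TPM. Both coding copies were above 70 TPM in each GFP-positive library and below 2 TPM in each GFP-negative one.
Gm4307 had 0.821, 67.6, 0.688 and 149 TPM. Gm4312, on the minus strand, had 1.24, 77.1, 0.917 and 113 TPM. Gm4312 was the highest member in the GFP-positive library of the GFP line, but not in that of the fusion line, where Gm4305 was highest.
Gm4305 had 0.706, 68.7, 0.696 and 153 TPM. Gm8711 had 0.893, 65.4, 0.679 and 148 TPM. Both copies were above 60 TPM in each GFP-positive library and below 1 TPM in each GFP-negative one.
Gm4308 had 1.54, 74.0, 0.815 and 136 TPM. Gm8701 had 0.610, 67.4, 0.719 and 147 TPM. Both copies were again below 2 TPM in the GFP-negative libraries.
Gm8723, the first copy in the array, had 1.42, 56.4, 0.720 and 85.1 TPM. Gm4781, the last copy and the most divergent one, had 0.455, 33.5, 0.267 and 82.3 TPM. These outermost copies were the lowest members in both GFP-positive libraries, and Gm4781 was the lowest member in all 4 libraries. The highest member exceeded the lowest 2.30-fold in the GFP-positive library of the GFP line and 1.86-fold in that of the fusion line. For each of the 10 members, every GFP-positive value lay above every GFP-negative value.

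**Figure D2:**
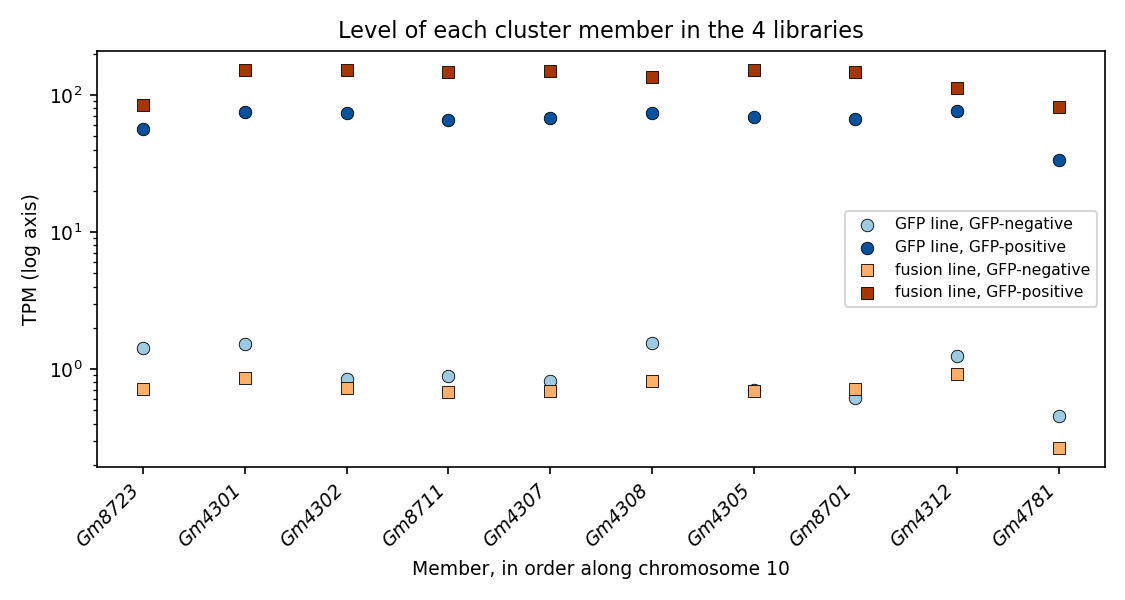
TPM of each member on a log axis, in order along the chromosome; circles are the GFP line, squares the fusion line, pale symbols GFP-negative and dark symbols GFP-positive libraries, 1 library per point. GFP-negative values run from 0.267 to 1.54 TPM and GFP-positive values from 33.5 to 153 TPM.

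Ratios between libraries were taken as log2 of TPM + 1, so that changes of low genes are understated, and a gene was counted as changed at 2-fold or more among genes at 5 TPM or more in either library. In the GFP line, 10 of 10 members were counted as higher in GFP-positive cells, and so were 33.2% of all genes past the filter, while 7.48% were lower. Under quantile normalization these shares were 22.1% and 20.9%, and the ratio of the members' summed TPM was 17.7. The members' log2 ratios ran from 4.57 for Gm4781 to 5.41 for Gm8701, with a median of 5.13, against a median of 0.19 over all genes past the filter (-0.13 under quantile normalization). Of those genes, 2.94% were at or above the smallest member ratio. Among genes above 0 in both libraries, 17.3% were 2-fold or more higher. In both lines every member was below 2 TPM in GFP-negative cells and passed the filter only through GFP-positive cells. A gene at such levels is counted as higher by construction.

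In the fusion line, 10 of 10 members were again counted as higher in GFP-positive cells, against 8.23% of all genes past the filter, or 6.67% of those above 0 in both libraries, while 3.14% were lower. Under quantile normalization 6.23% were higher and 4.81% lower. Log2 ratios ran from 5.64 for Gm8723 to 6.51 for Gm4305, with a median of 6.40. The median over all genes past the filter was 0.14 (-0.046 under quantile normalization and -0.011 with median-ratio scaling). Of the genes past the filter, 0.546% were at or above the smallest member ratio. Gm4781 had the largest ratio of plain TPM, 308, and its GFP-negative level of 0.267 TPM was the lowest of any member. In the GFP line its TPM ratio was 73.5. These shares describe how far out the members lay, and since the members were chosen with these values known they are not evidence about the cluster.

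**Figure D3:**
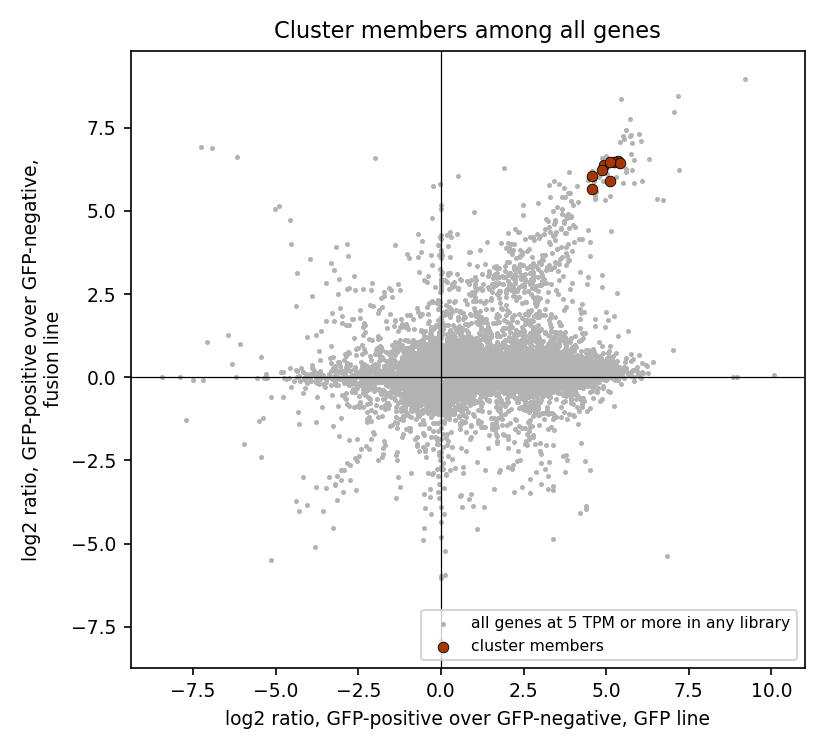
Log2 ratio of GFP-positive to GFP-negative TPM + 1 in the GFP line (horizontal axis) and in the fusion line (vertical axis) for genes at 5 TPM or more in any library, with the 10 members in red. The members lie between 4.57 and 5.41 on the horizontal axis and between 5.64 and 6.51 on the vertical axis.

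Because the copies are so alike, how reads were divided among them bears on each single value. The identical transcripts of Gm4301, Gm4308 and Gm4312 had 153, 136 and 113 TPM in the GFP-positive library of the fusion line, up to 1.35-fold apart. Gm8723 and Gm8701 are identical over the 818 bases that align, yet had 85.1 and 147 TPM in that library, 1.73-fold apart, and 1.42 and 0.610 TPM in the GFP line's GFP-negative library, 2.33-fold apart. No read from inside a shared stretch can separate such copies, so differences of these sizes between members, the low rank of Gm8723 included, cannot be read as differences between copies. Stretches of 50 bases found in no other GENCODE M21 gene covered 71.0% of the possible windows in Gm4781, 40.4% in Gm4305, 13.9% in Gm8711 and 0.456% in Gm4302, and none in the other 6 members. At 100 bases the shares were 98.7%, 53.5%, 24.9% and 7.73%, and again 0 in the other 6. Gm4781, the member with the most sequence of its own, had log2 ratios of 4.57 in the first line and 6.04 in the second. The read length is not given in the sources used here, and only annotated transcripts were searched.

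Gm4301 was listed with 2 transcripts, and their levels were split by sorted population. The transcript with a GENCODE M21 entry had 0 TPM in the GFP-negative libraries of both lines, and 75.7 and 153 TPM in the GFP-positive libraries, in line order. The transcript without such an entry had 1.53 and 0.856 TPM in the GFP-negative libraries, and 0.00352 and 0.00403 TPM in the GFP-positive ones. The GFP-negative value of the symbol Gm4301 therefore rests on a transcript whose position was not used here. Without that transcript, an alternative added after seeing the data, the log2 ratio of Gm4301 was 6.26 in place of 4.92 in the GFP line and 7.27 in place of 6.37 in the fusion line, the largest of any member in both.

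Between the GFP-positive libraries, the cluster was higher in the fusion line, with a ratio of summed TPM of 2.00. On the log2 scale all 10 members were above 0, from 0.55 for Gm4312 to 1.27 for Gm4781, with a median of 1.07 against 0.046 over all genes past the filter. Of the 10 members, 7 were 2-fold or more higher, against 5.71% of all genes past the filter (4.05% were lower). The count was 5 with a pseudocount of 5 TPM, where 3.13% of genes were higher, and 5 with median-ratio scaling. No share of all genes is set beside the count with median-ratio scaling, so that count is a description only. As deposited, 12.3% of genes past the filter were at or above the smallest member ratio. Gm8723, Gm4308 and Gm4312 were the 3 members under 2-fold, with TPM ratios of 1.51, 1.84 and 1.47. Gm4301, identical to Gm4308 and Gm4312, had 2.02 and was counted. Gm8701, identical to Gm8723 over the bases that align, had 2.19 and was counted. Reads from shared stretches cannot separate such copies, so which members passed 2-fold cannot be read as a difference between copies. This comparison shares its libraries with the comparisons within each line. Of 34 listed genes of other 2-cell families and single genes, 32 passed the filter in it, 22 were 2-fold or more higher and 1 was lower, with a median of 1.11 over the 34.

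Between the GFP-negative libraries, the ratio of summed TPM was 0.704, fusion line over GFP line. No member reached 5 TPM in either library, so none could be counted, while 30.1% of all genes past the filter were 2-fold or more higher and 8.49% lower. Under quantile normalization these shares were 21.8% and 19.8%, the ratio of the members' summed TPM was 0.196 and their median log2 ratio -1.42. As deposited, member log2 ratios ran from -0.49 for Gm8723 to 0.094 for Gm8701, with a median of -0.19. Gm8701 was at -1.18 under quantile normalization, and Gm4305 went from -0.0088 to 0.055 with median-ratio scaling. At these levels, under 2 TPM and with the depth unknown, no difference between the lines can be read.

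The listed genes within 500 kb were examined next. Gm4303 was not among the chosen members. Its listed transcript has no GENCODE M21 entry, so it is placed inside the array by symbol only. Gm4303 had 0.893, 69.1, 0.668 and 137 TPM in the order given above, within the members' range in each library. The GENCODE M21 copies named Gm4303 and Gm4305 are both identical in transcript sequence to Gm4307. The listed Gm4305 is a different copy. Reads from inside the sequence shared with Gm4307 cannot separate these copies. Gm9476, an unprocessed pseudogene at chr10:100306498-100307193 and 93.2% identical to Gm4308, had 0.683, 5.34, 0.409 and 108 TPM. In the GFP-positive library of the fusion line it was in the range of the members, and in that of the GFP line it was below all of them. Its log2 ratio between the GFP-positive libraries was 4.11, against 1.27 for the highest member. How reads were divided among such alike copies is not given, so this difference cannot be assigned to Gm9476 itself.
Tmtc3, which encodes a transmembrane protein of the endoplasmic reticulum, had 0.790, 12.2, 3.71 and 12.5 TPM. 4930430F08Rik was listed at 0 in the first of these libraries and had 5.93, 4.70 and 8.07 TPM in the others. The microRNA genes Gm22918 and Gm25287 were listed at 0 in 3 libraries and had 0.162 and 0.331 TPM in the GFP-positive library of the fusion line. None of these 4 genes reached the level of any member in a GFP-positive library.

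**Figure D4:**
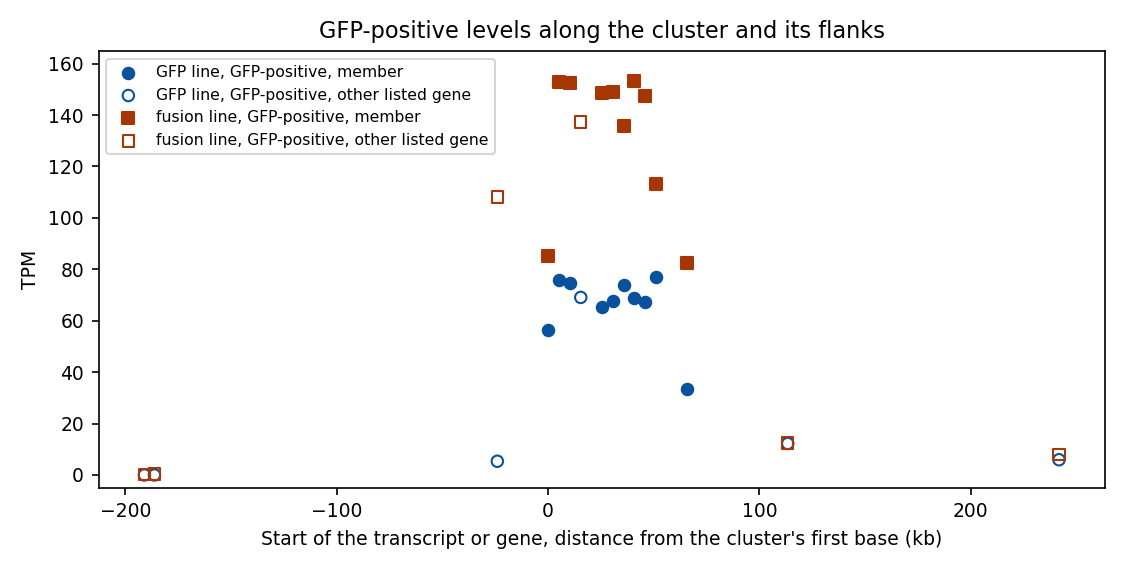
TPM in the GFP-positive libraries against distance in kb from the first base of the cluster; filled symbols are members, open symbols other listed genes, circles the GFP line and squares the fusion line. Gm9476, left of the cluster, has 5.34 TPM in the GFP line and 108 TPM in the fusion line. Gm4303 is placed by its symbol.

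Outside the array, 21 GENCODE M21 or listed symbols aligned to a member over 400 bases or more, a limit set after the values were seen, and 17 of them were listed. In the GFP line 11 of the 13 relatives past the filter were 2-fold or more higher in GFP-positive cells, and in the fusion line 12 of 14. Over all genes past the filter the shares were 33.2% and 8.23%. Relatives near 0 in GFP-negative cells, such as Gm9476 and Gm6489, passed only through GFP-positive cells and are counted as higher by construction. The 7 listed relatives at chr10:104144317-104196522, among them Gm4340, were 88.6% to 94.7% identical to their closest member. Their summed TPM were 34.4, 2129, 25.1 and 5147 in the order given above, above those of the cluster in every library.
On chromosome 1, Gm6489 had 0.194, 29.1, 0.397 and 55.7 TPM. Gm5698 had 0.336, 39.1, 0.299 and 76.5 TPM, and Gm5699 had 1.16, 23.8, 0.375 and 46.6 TPM. Gm6489, Gm5698 and Gm5699 thus also had low GFP-negative and higher GFP-positive values in both lines. Others on chromosome 1 were lower. Gm9458 had 0, 2.68, 0.0335 and 7.35 TPM. Gm8391, Gm4850 and Gm28645 were at or near 0 throughout, with at most 0.577, 0.713 and 0.0471 TPM. Alyref had 66.9, 52.6, 69.1 and 69.0 TPM, with log2 ratios of -0.34 and -0.0036. Alyref2 had 3.54, 6.31, 5.00 and 6.03 TPM, with log2 ratios of 0.69 and 0.23. Neither passed 2-fold in a line.

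**Figure D5:**
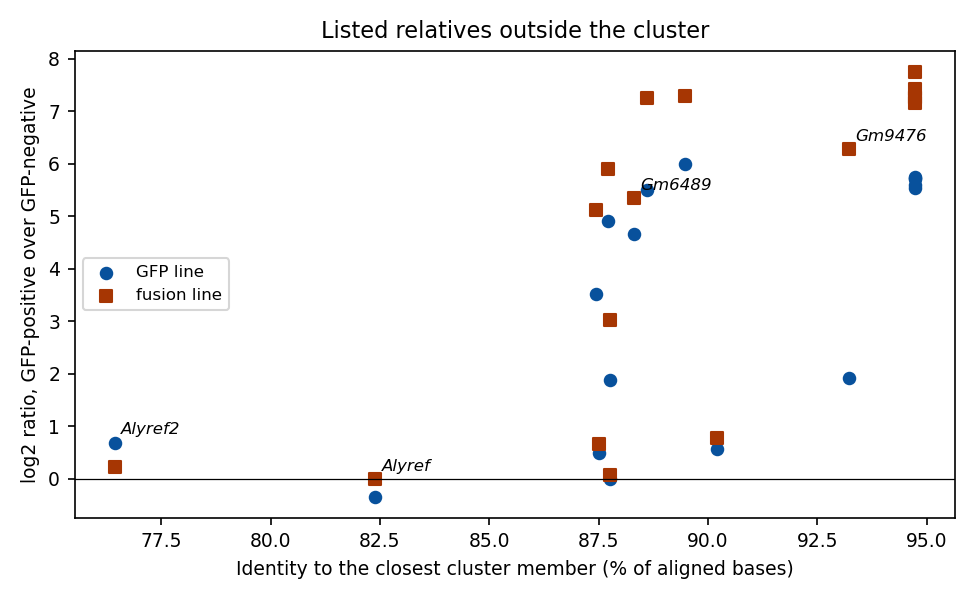
Log2 ratio of GFP-positive to GFP-negative TPM + 1 for the 17 listed relatives outside the array, against identity to the closest member in percent of aligned bases; circles are the GFP line and squares the fusion line. Alyref and Alyref2 have ratios of at most 0.69. Gm28645, Gm8391 and Gm4850, at 87.5% to 90.2% identity, have ratios of at most 0.78. Gm4340 and its neighbours on chromosome 10 lie highest.

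Likeness of pattern was measured as the distance between a gene's log2(TPM + 1) values and the members' median values over the 4 libraries, among the 14369 genes that reached 1 TPM in 2 or more libraries. The members themselves lay at 0.0493 to 1.43. The nearest other gene was Gm4303 at 0.118, whose GENCODE M21 copy has the same transcript sequence as Gm4307. Next came Gm4782 on chromosome 6 at 0.440, Gm6803 on chromosome 12 at 0.541 and Gm8038 on chromosome 6 at 0.562. Tcstv3, AF067061 and B020031M17Rik, all on chromosome 13, followed at 0.652, 0.711 and 0.750, and Gm2056 on chromosome 12 at 0.780. Tcstv3, Gm6803 and Gm2056 are in the families of 2-cell genes that were listed. Of 34 listed 2-cell genes, all 32 past the filter in the first line were 2-fold or more higher in GFP-positive cells. So were all 31 in the second line. Medians over the 34 were 5.51 and 6.13. Of all genes past the filter, 33.2% and 8.23% were 2-fold or more higher. In GFP-negative cells, 15 of the 34 were listed at 0 in the first line and 8 in the second. A gene at 0 there passes the filter only through GFP-positive cells and is counted as higher by construction. Zscan4c, Gm4340, Gm21312, Gm20765 and Gm21761 alone reached 5 TPM in GFP-negative cells of the GFP line, and Gm21761 alone in those of the fusion line. All other listed 2-cell genes past the filter also passed only through GFP-positive cells, so these counts are a description.

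Markers of other lineages were low in all libraries. Summed TPM of the 3 listed trophectoderm markers were 0, 11.2, 0.0452 and 3.42, of the 2 primitive endoderm markers 0, 2.22, 0.441 and 3.07, and of the 3 fibroblast markers 0, 11.9, 0.114 and 7.42. Col1a1 and Col1a2 were listed at 0 in both libraries of the GFP line, where Thy1 made up the fibroblast sum. These sums were higher in GFP-positive than in GFP-negative libraries, as the cluster was, and their part in the result was not tested.

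The RefSeq promoter table (GRCm38.p6) held 4 members whose window contains the start of the listed transcript: Gm4301, Gm4302, Gm4307 and Gm4312. Each window runs from 250 bases before the start to 50 after it. Gm4301 (chr10:100335426-100335725, plus strand) and Gm4302 (chr10:100340586-100340885, plus strand) are shown because they show the differences found among the windows, in capitals.
Gm4301: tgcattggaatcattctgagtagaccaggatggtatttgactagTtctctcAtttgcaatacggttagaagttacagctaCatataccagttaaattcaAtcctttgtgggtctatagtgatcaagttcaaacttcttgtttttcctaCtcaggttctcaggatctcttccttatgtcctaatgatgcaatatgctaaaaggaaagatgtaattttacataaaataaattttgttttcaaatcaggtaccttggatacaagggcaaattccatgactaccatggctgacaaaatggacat
Gm4302: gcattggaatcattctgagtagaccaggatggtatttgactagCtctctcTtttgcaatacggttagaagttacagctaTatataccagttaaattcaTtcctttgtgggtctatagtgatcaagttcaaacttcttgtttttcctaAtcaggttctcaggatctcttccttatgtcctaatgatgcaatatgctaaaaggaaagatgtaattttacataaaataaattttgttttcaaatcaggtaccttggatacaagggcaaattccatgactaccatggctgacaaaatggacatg
Gm4301 and Gm4302 differed at 5 of 299 aligned bases and were 98.3% identical. The Gm4312 window matched Gm4301, and the Gm4307 window matched Gm4302 over the 298 bases they share. Each window held 1 CpG, where the median of 32851 promoters was 7 and 14.1% had 1 or none. GC content was 35.0% to 35.3%, against a median of 52.7%. On both strands, TGCACAC, a string linked to Zscan4 binding, was found in 0 of 4 windows and in 4.40% of all promoters. TGTGTG, which can overlap it, was found in 0 of 4 and in 21.1%, and TATAAA in 0 of 4 and in 13.6%. These letters are absent from the windows printed, which says nothing about binding elsewhere.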

How the data were processed

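Poly-A RNA of 4 sorted populations was sequenced after random-hexamer priming, per the labels' protocols. The authors deposited TPM per transcript. Per the submitters' processing notes, tools were HISAT2 2.1.0, StringTie 1.3.5 and CASAVA, and the build GRCm38 (mm10). Not given in the sources used here are the annotation release, the read length and how reads that map to several copies were handled. TPM were summed per symbol over the 58853 transcripts. With 1 library per group no test was made: ratios are on log2(TPM + 1), counted at 2-fold among genes at 5 TPM or more in either library. Positions and transcripts came from GENCODE M21, and identities from blastn 2.17.0. Protein sequences were not used here, and transcript identity took the place of the planned protein identity. Named genes were all members, listed genes within 500 kb, and the 8 genes nearest in pattern; relatives were chosen with values in view. The members, lists and tests were chosen with earlier results of these data known. Calculations used pandas 2.3.3 and were tested on simulated data. Alternatives were another pseudocount, scaling, transcript choice or filter, and, added after seeing the data, the Gm4303 listing and leaving out a Gm4301 transcript.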

Additional observations from a re-analysis of the deposited data

How the results depend on the processing

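With no replicates or counts there is no spread to judge a shift by, so each change in a median or a ratio of sums of the cluster is given. None of these changed sign or side of 1. Median log2 ratios are given for the GFP line, the fusion line, the GFP-positive libraries and the GFP-negative libraries. They were 5.98, 7.51, 1.08 and -0.37 with a pseudocount of 0.1, 3.63, 4.75, 1.03 and -0.052 with 5, and 5.12, 6.29, 1.04 and -0.13 with median-ratio scaling. With quantile normalization they were 3.89, 6.40, 1.09 and -1.42. With Gm4303 the last 3 were 6.37, 1.02 and -0.18, and without the unplaced Gm4301 transcript the first, second and last were 5.18, 6.45 and -0.14. In the same order, ratios of sums were 66.9, 167, 1.95 and 0.784 with median-ratio scaling and 17.7, 183, 2.02 and 0.196 with quantile normalization. With Gm4303 they were 66.5, 188 and, between GFP-negative libraries, 0.708. Without the Gm4301 transcript they were 77.4, 212 and 0.730. The cause was not tested.

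Of 90 member values per comparison, 53, 54, 51 and 49 were equal to the reported value to 2 decimals. Most of these equal values could not change. The filters and the Gm4303 listing leave every member ratio as it is, and the transcript choices can move only Gm4301. All 90 values were above 0 in the first 3 comparisons. Between GFP-negative libraries 2 changed sign, Gm8701 to -1.18 with quantile normalization and Gm4305 to 0.055 with median-ratio scaling. With median-ratio scaling the fusion line's median over all genes past the filter turned to -0.011. With quantile normalization the medians over genes past the filter turned to -0.13 in the GFP line and -0.046 in the fusion line. Between GFP-positive and between GFP-negative libraries, quantile normalization turned them to -0.0039 and -0.11. Members 2-fold higher between GFP-positive libraries numbered 5, not 7, with a pseudocount of 5 and with median-ratio scaling. For median-ratio scaling the share of all genes is not given beside this count. Under quantile normalization, genes 2-fold higher and lower were 22.1% and 20.9% in the GFP line, against 33.2% and 7.48%. In the fusion line they were 6.23% and 4.81%, against 8.23% and 3.14%, and between GFP-negative libraries 21.8% and 19.8%, against 30.1% and 8.49%. With a pseudocount of 5, genes higher and lower between GFP-positive libraries were 3.13% and 2.62%, against 5.71% and 4.05%. Genes lower were then 2.05% in the fusion line and 5.58% between GFP-negative libraries. Among genes above 0 in both libraries, genes higher were 17.3% in the GFP line and 14.9% between GFP-negative libraries. A fit over both lines with the line as a block, which leaves 1 residual degree of freedom, was not run. Leaving out a library would leave a group empty. TPM keep no depth, which limits every value under 2 TPM.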
